A study of Mus musculus with 19 samples.

Results

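The genes described here copy DNA or supply its building blocks in S phase. They are 37 genes chosen by name: origin recognition and licensing factors, the MCM2-7 helicase, the factors that activate it, the sliding clamp and its loader, single-strand binding protein, primase and polymerases, enzymes that join Okazaki fragments, enzymes of nucleotide supply, the E-type cyclins and a chromatin assembly factor. Of the 37, 36 had a probe set (on these arrays, several short probes read together as a single value) that names only that gene, out of 18193 such genes in the whole series, and all 36 passed the filter on dim signals that 13320 genes passed. Chaf1a had none and has no value. Where a gene had several such probe sets, the one with the highest mean over all arrays stands for it.

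The series holds 19 Affymetrix arrays of total RNA from wild-type mouse embryos of the ICR strain, staged by the vaginal plug (plug day E0.5). The lens series has lens tissue of 3 stages, with 3 arrays of E10.5, 3 of E11.5 and 3 of E12.5, and 4 arrays of whole embryonic body labelled E10.5-12.5. The tooth series has 3 arrays of tooth germ at E13.5 and 3 arrays of whole body labelled E11.5-13.5. No group carries a mutation, transgene or treatment. The whole-body groups serve as the control for tissue enrichment, they span several days under a single label, and nothing in the labels says whether arrays of a group came from separate litters or pools. Every p-value therefore measures the spread between these arrays, which may be technical.

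DNA replication starts at origins bound by the origin recognition complex, to which Cdc6 and Cdt1 bring the ring-shaped MCM helicase in G1. Kinases then fire the origins, Cdc45 and the GINS complex turn the ring into a working helicase, and polymerases copy both strands while ribonucleotide reductase and the thymidylate pathway keep up the supply of deoxynucleotides. Most of these genes are transcribed at the entry to S phase under the E2F factors. In the lens, cells of the early pit and vesicle divide, and its posterior cells then leave the cell cycle and lengthen into primary fibres, while the epithelium at the front goes on dividing.

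Because E2F sites are a known feature of this class of genes, the promoters were read for them. Of the 36 measured genes, 30 matched the RefSeq promoter table of assembly GRCm38.p6. The 250 bases before the start of an annotated transcript were searched on both strands for the octamers TTTCCCGC, TTTGGCGC, TTTCGCGC and TTTGCCGC, whose matches can overlap. At least 1 octamer stood in 7 of the 30 genes (23.3%), against 583 of 27025 genes in the table (2.16%). These genes were Orc1, Cdc6, Mcm5, Mcm6, Mcm7, Rfc3 and Pola1. The windows of Mcm6, of the helicase, and Rfc3, of the clamp loader, lie wholly before the annotated gene and are shown with the matches in capitals. Those of the other 5 genes reach into the gene's full span. Both run 5′ to 3′ along the gene's strand: Mcm6 is chr1:128359706-128359955 (minus strand) and Rfc3 is chr5:151651209-151651458 (minus).
Mcm6: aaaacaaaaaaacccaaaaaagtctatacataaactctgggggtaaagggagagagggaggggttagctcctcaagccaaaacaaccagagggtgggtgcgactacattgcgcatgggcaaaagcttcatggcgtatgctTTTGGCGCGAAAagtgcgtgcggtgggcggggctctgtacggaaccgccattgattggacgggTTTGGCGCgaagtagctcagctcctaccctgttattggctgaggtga
Rfc3: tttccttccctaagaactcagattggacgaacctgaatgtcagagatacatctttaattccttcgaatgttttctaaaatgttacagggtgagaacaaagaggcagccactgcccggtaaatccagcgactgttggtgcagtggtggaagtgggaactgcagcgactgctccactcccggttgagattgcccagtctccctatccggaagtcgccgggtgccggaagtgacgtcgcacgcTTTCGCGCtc
Mcm6 held 3 matches, of which 2 overlap, and Rfc3 held 1. A match is a run of letters in a window, and no binding was measured here.

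As deposited, the linear signal values spanned 5.4 to 25043.5, with array medians of 42.5 to 46.5, and are given below as log2 signal. Within a group, pairs of arrays correlated at 0.965 to 0.995. Precision is limited by how many arrays a group has. The lens label matched its markers: all 9 genes of the lens epithelium list and 11 of 11 tested fibre genes were higher in E12.5 lens than in the bodies. The tooth label matched too, with 7 of 7 dental mesenchyme genes and 4 of 5 tested dental epithelium genes higher in tooth germ than in its bodies. All 6 neuron, 6 fetal liver and 6 muscle genes were lower than in the matched bodies at each lens stage and in tooth germ. The 2 series differed in the gap between control probe sets for the 3′ and 5′ ends of a transcript. The log2 signal of the actin 3′ control set minus its 5′ set was 0.21 to 0.48 on the 13 lens-series arrays and 4.22 to 5.05 on the 6 tooth-series arrays. Within the tooth series it was 4.78 to 5.05 in tooth germ and 4.22 to 4.47 in the bodies, while the same measure for Gapdh was 2.82 to 3.13 in tooth germ and 3.84 to 4.08 in the bodies. Neither overlapped, and their part in the tooth results was not tested.

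In the lens, the replication genes stood close to the whole body at E10.5, were partly lower at E11.5 and were lower almost throughout at E12.5. Of the 36 genes, 32 were not called against the bodies at E10.5, as were 8975 of all 13320 tested genes. At that stage 2 were called higher (Pole and Tyms) and 2 lower (Rrm2 and Ccne1), against 13.5% higher and 19.1% lower among all tested genes, but the split depended on the processing. It was 5 higher and 0 lower with each array centred on its median, 1 and 2 with quantile normalization, and 6 and 2 with the mean of a gene's probe sets. The counts also rested on single arrays: 1 was higher without E10.5 replicate 1 or 2 or without body replicate 1, 2 or 4, and without the same arrays 0 (E10.5 replicate 1) or 1 was lower. At E11.5, 1 was higher and 16 were lower (background 14.7% and 22.3%); the higher one, Tyms, lost its call without E11.5 replicate 1 or 3 or body replicate 1, 3 or 4, which left 0. With the second-brightest probe set of each gene that has several, which left 33 genes tested, 9 were lower at E11.5. At E12.5, 0 were higher and 34 were lower (background 16.6% and 26.7%). Among other genes with a mean within the middle 50% of the members' means, 27.0% were lower. With the second-brightest probe set, a check in which genes with a single set kept it, 3 genes lost their call. Another 3 turned positive there: Orc1 (0.15), Mcm10 (0.02) and Cdc45 (0.33). The median difference from the bodies went from 0.06 to -0.32 and then to -1.09 log2, while the median of all tested genes was -0.01, -0.03 and -0.05. The 3 comparisons share the same 4 body arrays. In bulk tissue, fewer cells in S phase and less RNA per cell cannot be told apart.

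**Figure D1:**
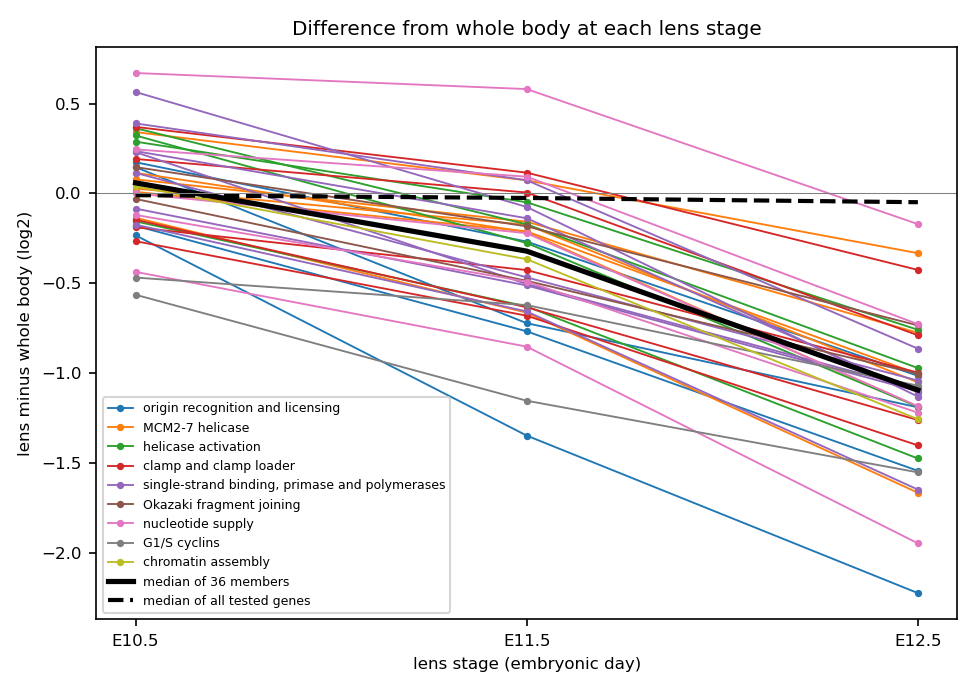
Lines give each of the 36 genes' mean lens log2 signal minus the mean of the 4 bodies at the 3 lens stages (x axis, embryonic day), coloured by role; the thick solid line is the median of the 36 and the dashed line the median of all tested genes. The solid line falls from 0.06 to -1.09 while the dashed line stays between -0.01 and -0.05.

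Call by call, 17 genes were first lower than the bodies at E12.5, and 14 were lower from E11.5 on. Rrm2 and Ccne1 were lower at all 3 stages. Pole went from higher to lower, Tyms from higher to not called, and Mcm2 was called at no stage. Within the lens, which does not use the bodies, 35 of 36 genes fell from E10.5 to E12.5, and 0 rose (background 13.2% lower and 8.91% higher). With the second-brightest probe set, 5 genes lost this call and Cdc45 turned to 0.0019. Genes with a single set kept the same values in that check, and only 25 of the 36 had several tested sets. The means of all 36 ran in order from E10.5 to E12.5. Of all 13320 tested genes, 6734 had a lower mean at E11.5 than at E10.5, and 7272 a lower mean at E12.5 than at E11.5. The 3 arrays of E12.5 lay below the 3 of E10.5 for all 36 genes, against 21.5% of tested genes. The median fall was -1.15 log2, beside a median of -0.01 for all tested genes. Of the 2949 other genes of similar mean, 19.4% were lower and their median was -0.13. Beside the fall, 9 of 11 tested fibre genes rose from E10.5 to E12.5 (median 3.66), 7 of 9 surface ectoderm genes fell (median -3.39), and of 8 mesenchyme and fibroblast genes 5 rose and 2 fell (median 0.99). The part of these shifts in cell makeup in the fall was not tested.

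**Figure D2:**
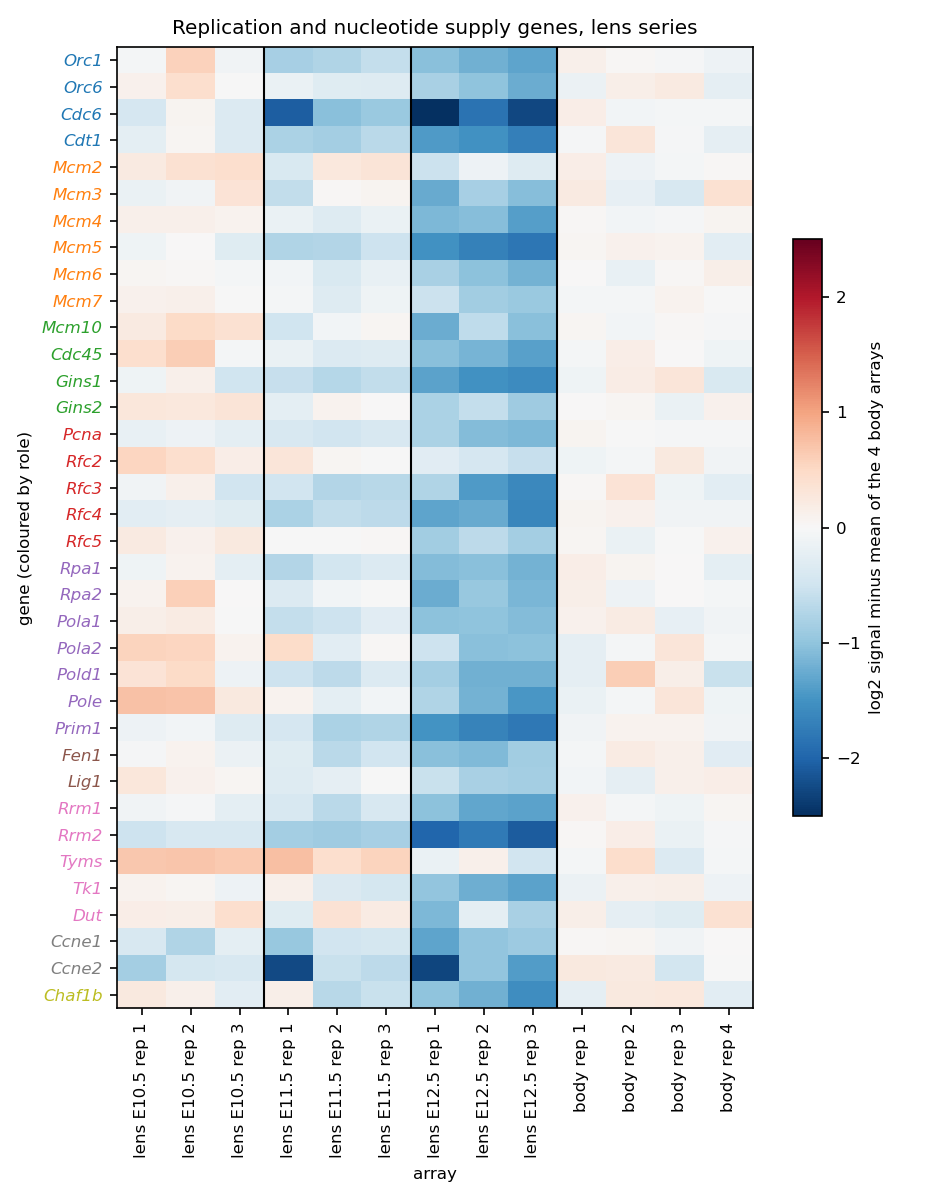
Colour gives the log2 signal of each gene (rows, labels coloured by role) on each of the 13 lens-series arrays (columns), minus that gene's mean over the 4 body arrays; blue is lower and red higher. The E12.5 columns are blue in nearly every row, while the E10.5 columns are mostly pale.

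One lens array stood apart in its fibre markers. The fibre list's summed log2 signal was 12.10 and 11.93 on E10.5 replicates 1 and 2 but 16.37 on replicate 3, against 16.60 to 16.71 at E12.5, 14.38 to 15.53 at E11.5 and 8.91 to 9.25 in the bodies. Replicate 3 had the lowest E10.5 signal for 26 of the 36 replication genes, with a median departure of -0.12 from the group mean. Without it, 34 genes were called lower at E12.5 than at E10.5 and the median fall was -1.24. The surface ectoderm list summed to 11.84 to 12.49 at E10.5, 9.71 to 9.93 at E11.5 and 8.56 to 8.88 at E12.5. Each lens stage also held arrays with high and with low signal of the bacterial control sets. The high set held 2 arrays of E10.5 and 1 of E12.5, and the low set 1 (replicate 3) and 2, so only median changes are given. From E10.5 to E12.5, the median change of the replication genes was -1.11 within the high set and -1.07 within the low set.

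All 4 licensing genes fell from E10.5 to E12.5, with a median of -1.35. Cdc6, the loader that brings the MCM ring to the origin, had log2 signals of 8.84, 9.33 and 8.91 at E10.5, 7.20, 8.20 and 8.32 at E11.5, 6.71, 7.41 and 6.98 at E12.5, and 9.42, 9.19, 9.21 and 9.21 in the bodies. Every E12.5 array was below every E10.5 and body array, while E11.5 replicate 1 lay within the E12.5 range. Cdc6 fell by 1.99 ± 0.28 (SE) log2, or 3.98-fold, the largest fall among the 36 (adjusted p = 3.05e-05). It also lay furthest below the bodies at E11.5 (-1.35 ± 0.26, adjusted p = 0.000386) and at E12.5 (-2.22 ± 0.26, adjusted p = 8.86e-07). Orc1, the large ATP-binding subunit of the origin recognition complex, Orc6 of the same complex and Cdt1, the partner of Cdc6 in loading, changed by -1.34, -1.19 and -1.36. Orc1, Cdc6 and Cdt1 were already called lower at E11.5 than at E10.5. None of these calls held without E10.5 replicate 1 or without replicate 2.

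All 6 MCM2-7 helicase genes fell from E10.5 to E12.5 (median -1.05). Mcm5 read 11.35, 11.47 and 11.17 at E10.5, 10.72, 10.73 and 10.96 at E11.5, 9.96, 9.79 and 9.66 at E12.5, and 11.52, 11.58, 11.56 and 11.21 in the bodies. The 3 lens stages did not overlap, and the E10.5 arrays overlapped the bodies. The fall was -1.53 ± 0.15 (adjusted p = 7.12e-07). Mcm7 read 12.46, 12.47 and 12.33 at E10.5, 12.30, 12.03 and 12.23 at E11.5, 11.81, 11.48 and 11.41 at E12.5, and 12.30, 12.30, 12.44 and 12.33 in the bodies. Its E12.5 arrays were the lowest and did not overlap the other stages. It fell by 0.85 ± 0.13. The changes of the others were -1.30 for Mcm4, -1.08 for Mcm3, -1.01 for Mcm6 and -0.67 for Mcm2. Mcm2 at E12.5 was -0.33 ± 0.17 from the bodies, the one helicase gene not called there.

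The 4 genes of helicase activation fell together from E10.5 to E12.5 (median -1.33). Cdc45, a subunit of the active helicase, read 8.25, 8.45 and 7.79 at E10.5, 7.67, 7.51 and 7.52 at E11.5, 6.80, 6.68 and 6.48 at E12.5, and 7.80, 8.0, 7.84 and 7.73 in the bodies. The 3 stages did not overlap, and 2 of the 3 E10.5 arrays were above all bodies. Cdc45 fell by 1.51 ± 0.21 (adjusted p = 2.74e-05). A further, dimmer Cdc45 probe set differed by 0.00 ± 0.18 between the same stages. Mcm10, which helps to start the helicase, fell (-1.34), as did the GINS subunits Gins1 (-1.32) and Gins2 (-1.05).

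All 5 genes of the clamp and its loader fell from E10.5 to E12.5 (median -0.98). Rfc4, a small subunit of the clamp loader, read 9.63, 9.68 and 9.60 at E10.5, 9.12, 9.29 and 9.25 at E11.5, 8.59, 8.65 and 8.27 at E12.5, and 9.98, 10.00, 9.82 and 9.82 in the bodies. No 2 of these groups overlapped. Its fall was -1.14 ± 0.15 (adjusted p = 1.77e-05). The changes were -0.81 for Pcna, the clamp itself, and -1.11, -0.98 and -0.80 for the loader subunits Rfc3, Rfc5 and Rfc2. Rfc2 stayed nearest the bodies at E12.5 among the 34 genes called there, at -0.43 ± 0.15.

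The single-strand binding, primase and polymerase genes fell as a group of 7 of 7 (median -1.32). Pole, the catalytic subunit of the leading-strand polymerase, read 9.20, 9.19 and 8.71 at E10.5, 8.54, 8.23 and 8.40 at E11.5, 7.71, 7.28 and 7.02 at E12.5, and 8.30, 8.42, 8.78 and 8.36 in the bodies. Of the E10.5 arrays, 2 were above all bodies and replicate 3 was within their range, and every E12.5 array was below them. Pole was 0.56 ± 0.21 higher than the bodies at E10.5 (adjusted p = 0.0423) and fell by 1.70 ± 0.22 (adjusted p = 1.49e-05). Pola2, a subunit of the primase-polymerase complex, read 9.34, 9.32 and 8.86 at E10.5, 9.24, 8.52 and 8.82 at E11.5, 8.27, 7.74 and 7.75 at E12.5, and 8.57, 8.74, 9.09 and 8.73 in the bodies. The first 2 stages overlapped each other and the bodies, and E12.5 lay below all of them. It fell by 1.25 ± 0.22. The changes of the others were -1.47 for Prim1, the primase, -1.16 for Pola1, -1.32 for Pold1 of the lagging-strand polymerase, and -1.02 and -1.34 for the binding-protein subunits Rpa1 and Rpa2.

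Both genes of Okazaki fragment joining fell. Fen1, the flap nuclease, read 11.07, 11.19 and 10.96 at E10.5, 10.79, 10.43 and 10.63 at E11.5, 10.06, 10.00 and 10.23 at E12.5, and 11.06, 11.30, 11.23 and 10.82 in the bodies. The lens stages did not overlap. Fen1 fell by 0.97 ± 0.14 (adjusted p = 4.9e-05), and Lig1, the replicative DNA ligase, changed by -0.88.

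All 5 genes of nucleotide supply fell from E10.5 to E12.5 (median -1.10). Rrm2, the S-phase subunit of ribonucleotide reductase, read 11.43, 11.54 and 11.54 at E10.5, 11.09, 11.04 and 11.12 at E11.5, 9.95, 10.17 and 9.85 at E12.5, and 11.97, 12.11, 11.76 and 11.90 in the bodies. No 2 of these groups overlapped, and arrays of a lens stage lay close together. Its difference from the bodies was -0.44 ± 0.13 in E10.5 lens (adjusted p = 0.0131), -0.85 ± 0.13 a day later (adjusted p = 2.86e-05) and -1.95 ± 0.13 in E12.5 lens (adjusted p = 3.32e-10). Tk1, the salvage thymidine kinase, read 9.47, 9.45 and 9.26 at E10.5, 9.51, 9.04 and 8.96 at E11.5, 8.39, 8.18 and 8.05 at E12.5, and 9.25, 9.51, 9.53 and 9.27 in the bodies. The first 2 stages overlapped the bodies and E12.5 lay below all. Tk1 fell by 1.18 ± 0.19. The changes of Rrm1, the large reductase subunit, and Dut, which removes dUTP, were -1.10 and -0.97.

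Tyms, which makes thymidylate, needs care, since its named probe sets are dim. The one used read 5.76, 5.78 and 5.75 at E10.5, 5.85, 5.52 and 5.65 at E11.5, 4.94, 5.22 and 4.61 at E12.5, and 5.04, 5.53, 4.76 and 5.04 in the bodies, beside a 95th percentile of 4.71 for control sets with no target. E10.5 lay above the bodies (0.67 ± 0.21, adjusted p = 0.0164) and E12.5 overlapped them. A brighter set annotated to Tyms and Tyms-ps, a pseudogene, and so was not among the genes tested, read 10.53, 10.33 and 10.22 at E10.5, 10.20, 9.82 and 9.77 at E11.5, 9.33, 8.84 and 8.56 at E12.5, and 10.12, 10.18, 10.55 and 10.11 in the bodies. On that set the E10.5 arrays overlapped the bodies and every E12.5 array was below them.

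The cyclins E drive entry into S phase with Cdk2. Ccne1 read 9.02, 8.68 and 9.19 at E10.5, 8.48, 8.96 and 8.98 at E11.5, 8.10, 8.45 and 8.53 at E12.5, and 9.45, 9.47, 9.35 and 9.45 in the bodies. It was below all 4 bodies at every stage, with neighbouring stages overlapping, and its fall of 0.60 ± 0.18 was the smallest of the 36 (adjusted p = 0.0185). Ccne2 read 7.45, 7.86 and 7.90 at E10.5, 6.04, 7.74 and 7.65 at E11.5, 6.01, 7.32 and 6.91 at E12.5, and 8.54, 8.52, 7.85 and 8.29 in the bodies. Replicate 1 was far below the other arrays at E11.5 and E12.5. The change from E10.5 to E12.5 was -0.99 ± 0.38 (adjusted p = 0.0693), the only one of the 36 not called. Chaf1b, a subunit of the factor that deposits histones behind the fork, read 8.93, 8.81 and 8.41 at E10.5, 8.82, 7.99 and 8.12 at E11.5, 7.66, 7.47 and 7.13 at E12.5, and 8.44, 8.92, 8.93 and 8.40 in the bodies. E12.5 lay below all other arrays, and the fall was -1.30 ± 0.22 (adjusted p = 0.000184).

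**Figure D3:**
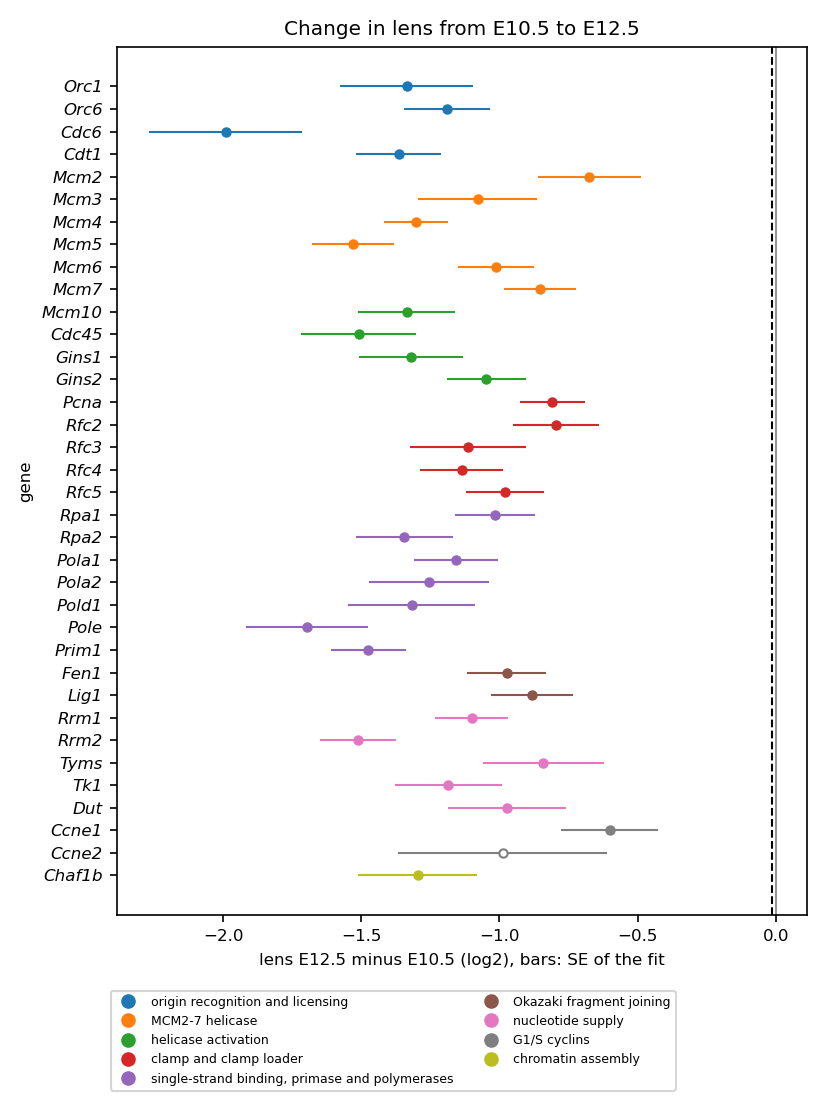
Points give the E12.5 minus E10.5 lens difference of each gene in log2 with bars of 1 SE, coloured by role; the open point is the gene not called and the dashed line is the median of all tested genes. Every point lies left of 0, from Cdc6 at -1.99 to Ccne1 at -0.60.

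The fall was spread over both steps. From E10.5 to E11.5, 5 genes fell (Orc1, Cdc6, Cdt1, Pola1 and Prim1; background 2.74% lower and 1.52% higher), with a median of -0.41. From E11.5 to E12.5, 29 fell (background 3.45% lower and 3.02% higher), with a median of -0.76. The difference between the steps was itself tested. It was negative for 31 of 36 genes (median -0.35). Among all 13320 tested genes it was negative for 6896 (median -0.01), and among the 2949 other genes of similar mean for 1277 (median 0.06). But limma called 0 of the 36 genes (background 0.150% lower and 0.300% higher). Of the 36, 6 had an unadjusted p under 0.05 (937 of all 13320 tested genes, or 7.03%, did), and the lowest adjusted p was 0.288. The steps were therefore not shown to differ for any single gene. The counts in single steps moved with the arrays used. Without E12.5 replicate 3 the second step had 18 falls, with only the arrays of the 2 stages in the fit 8, and with the second-brightest probe set 19. The first step had 0 falls without E10.5 replicate 1 or without replicate 2, 8 without replicate 3, 1 to 2 without an E11.5 array, 2 with median centring, and 1 with quantile normalization or the second-brightest probe set.

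In tooth germ most of the genes, 20 of 36, were not called. Against its own bodies, 3 were higher and 13 lower (background 16.6% and 25.3%), with a median of -0.20 against -0.04 for all tested genes. Among the 2949 other genes of similar mean, 14.9% were higher and 31.5% lower, so the share of members called higher was below that background and the share called lower was near it. The split moved with the scaling: it was 7 higher and 8 lower with quantile normalization, and 6 and 9 with median centring (median -0.04), where the mean of the array medians was 0.15 log2 higher in the bodies. With the second-brightest probe set it was 6 and 14. Rfc4, Rfc3, Dut, Pcna, Cdc6 and Ccne2 were the furthest below. Ccne2 read 8.07, 7.30 and 7.83 in tooth germ and 10.02, 9.43 and 10.01 in its bodies. The groups did not overlap, and the difference was -2.09 ± 0.38 (adjusted p = 0.000201). Rfc4 read 7.94, 7.74 and 8.21 against 9.49, 9.38 and 9.86, again with no overlap (-1.62 ± 0.15, adjusted p = 9.24e-08). Cdc6 read 9.55, 8.63 and 8.45 against 10.17, 10.06 and 9.99, with tooth replicate 1 nearest the bodies (-1.20 ± 0.28, adjusted p = 0.00195).

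The 3 genes called higher in tooth germ were Tk1, Pola2 and Mcm7. Tk1 read 8.22, 7.92 and 7.90 against 7.43, 7.50 and 6.73 in the bodies. Every tooth array was above every body (0.79 ± 0.19, adjusted p = 0.0027). Pola2 read 6.53, 7.17 and 7.04 against 6.45, 6.42 and 6.11, with tooth replicate 1 just above the bodies (0.59 ± 0.22, adjusted p = 0.0356). Mcm7 read 12.11, 11.82 and 11.87 against 11.60, 11.65 and 11.53, with no overlap (0.33 ± 0.13, adjusted p = 0.048). Mcm7 lost its call without any one of tooth replicates 1 and 3 and body replicates 1 to 3, with adjusted p-values of 0.0634 to 0.193. Pola2 lost its call without tooth replicate 2 or 3 or body replicate 2 or 3 (0.0534 to 0.146). Without body replicate 3, Tk1 alone was called higher. On the probe set used, Mcm5 and Rrm2 overlapped their bodies. Mcm5 read 10.08, 9.87 and 9.72 against 9.80, 9.94 and 9.59, and Rrm2 read 12.11, 11.62 and 11.76 against 11.74, 11.87 and 11.82. Both differences depend on the probe set: with the second-brightest they were -1.76 for Mcm5 and -1.25 for Rrm2, and with the mean of the sets -0.59 and -0.80. Ccne1 was -0.17 ± 0.18, Cdc45 -0.41 ± 0.21, Pole 0.52 ± 0.22, Chaf1b -0.10 ± 0.22, Tyms 0.26 ± 0.22 and Fen1 -0.22 ± 0.14 from the bodies, none of them called.

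Whether tooth germ and E12.5 lens differ in their distance from the body was tested as 1 contrast. The tooth difference was higher than the lens difference for 25 of 36 genes and lower for 0 (background 20.4% and 19.2%), with a median of 0.78. Tk1 (1.98), Rrm2 (1.97), Mcm5 (1.78) and Prim1 (1.70) had the largest values, while Rfc4 (-0.21 ± 0.21), Ccne2 (-0.53 ± 0.52) and Tyms (0.43 ± 0.30) were not called. The lowest value of the 36 was that of Dut (-0.72), also not called. With the second-brightest probe set of each gene, 14 were higher, among them Rfc4 (1.04), and 1 was lower, Mcm2 (-0.71). The values of Mcm5 (-0.42) and Cdc45 (-0.0479) turned negative. This contrast spans 2 series whose body arrays differ: 14 of the 36 genes were higher and 12 lower in the tooth-series bodies than in the lens-series bodies (background 31.8% in each direction), or 9 and 19 with the second-brightest probe set. Stage, dissection and series cannot be told apart there. Whether both series were normalized together is not given in the sources used here.

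Several genes had more than 1 probe set, which allowed a check of the choice. The 68 tested probe sets that name 1 of the 36 genes were tested each on its own, among 23913 such sets in all. Of the 68, 61 were lower and 0 higher at E12.5 than at E10.5. All sets were called lower in 19 of the 25 genes with several sets, and in 1 of the 25 the signs differed (Cdc45). Against the bodies at E12.5, 58 were lower and 0 higher. In tooth germ against body, 9 were higher and 24 lower, signs differed within 10 of the 25 genes, and Orc1 and Mcm7 had sets called in opposite directions. A gene with several sets counts several times here. No share over all tested sets is given, so these counts have no background beside them. For Mcm7, the set used and a further one were 0.33 and 0.43 in tooth germ against body, and 2 others were -0.72 and -0.15. For Rrm1, 1 set averaged 10.64 in the lens-series bodies and 11.00 in the tooth-series bodies, while another averaged 11.18 and 6.78. The 2 series also differ in the 3′ to 5′ control gap given above. The part of that gap in such spread and in the tooth results was not tested.

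**Figure D4:**
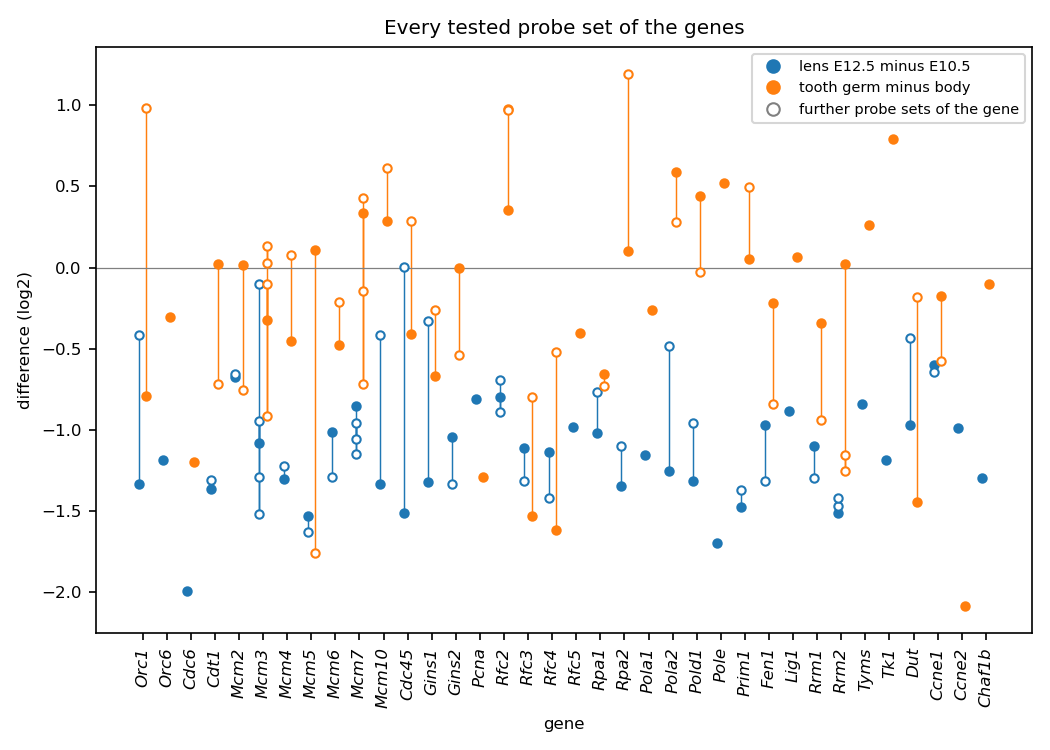
Points give every tested probe set of each gene (x axis), as the log2 difference E12.5 minus E10.5 lens (blue) and tooth germ minus body (orange); filled points are the set that stands for the gene and open points its further sets. The blue points lie at or below 0, and the orange points of 1 gene spread on both sides of 0 for 10 genes.

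Other genes of the same pathway, from lists that do not overlap the 37, are given by their counts. Of 34 further replication factors, 23 fell from E10.5 to E12.5 and 0 rose (median -0.86), against 13.2% and 8.91% of all tested genes. Among them were Gmnn, the inhibitor of Cdt1 (-1.62 ± 0.16), Dscc1, a part of an alternative clamp loader (-1.56 ± 0.25), the origin-firing kinase Cdc7 (-1.47 ± 0.13) and Timeless of the fork protection complex (-1.40 ± 0.17). The origin recognition subunits Orc2, Orc3, Orc4 and Orc5 were at -0.14, -0.07, -0.11 and -0.38, none called, beside the falls of Orc1 and Orc6. At E10.5, 8 of the 34 were higher than the bodies and 0 lower, against 13.5% and 19.1% of all tested genes. At E12.5 0 were higher and 20 lower (16.6% and 26.7% of all tested genes). In tooth germ 3 were higher and 11 lower than in the bodies (16.6% and 25.3%).

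Of 22 further nucleotide synthesis genes listed, 20 were tested, 4 fell and 1 rose from E10.5 to E12.5 (median -0.34), near the 13.2% and 8.91% of all tested genes. Those that fell were the folate enzymes Shmt1 (-1.09 ± 0.31) and Shmt2 (-0.54 ± 0.17), thymidylate kinase Dtymk (-0.87 ± 0.18) and Umps of pyrimidine synthesis (-0.81 ± 0.15). Rrm2b, the reductase subunit induced by p53 and used outside S phase, rose by 0.89 ± 0.17 (adjusted p = 0.000835), opposite to Rrm2. Against the bodies, 4 of the 20 were higher and 2 lower at E10.5 (13.5% and 19.1% of all tested genes), and 2 higher and 5 lower at E12.5 (16.6% and 26.7%). In tooth germ 4 were higher and 7 lower (16.6% and 25.3%). Nothing particular to these genes is read from counts so near the background.

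Regulators of S-phase entry split. Of 21, 9 fell from E10.5 to E12.5 and 5 rose (median -0.27), against 13.2% and 8.91% of all tested genes. The falls included the atypical repressors E2f7 (-1.69 ± 0.21) and E2f8 (-1.45 ± 0.19), the phosphatase Cdc25a (-1.17 ± 0.15) and Cdk2, the partner of cyclin E (-1.12 ± 0.19). Those that rose were Rb1 (1.27 ± 0.35) and Rbl2 (1.10 ± 0.23), members of the retinoblastoma family that hold E2F factors in check, the D-type cyclins Ccnd2 (0.65 ± 0.15) and Ccnd3 (0.51 ± 0.16), and E2f5 (0.57 ± 0.16), a repressive E2F. E2f1 (-0.04 ± 0.21) and E2f2 (0.11 ± 0.19) were not called. Against the bodies at E12.5, 4 were higher and 10 lower (16.6% and 26.7% of all tested genes), and in tooth germ 2 were higher and 10 lower (16.6% and 25.3%).

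Genes of chromatin and histone supply in S phase fell with the replication genes. Of 9, 7 fell from E10.5 to E12.5 and 0 rose (median -1.15), against 13.2% and 8.91% of all tested genes. They included the histone chaperone Asf1b (-1.41 ± 0.13), the maintenance methyltransferase Dnmt1 (-1.29 ± 0.19), topoisomerase Top2a (-1.25 ± 0.16) and Uhrf1, which guides Dnmt1 to new DNA (-1.22 ± 0.17). All 9 were lower than the bodies at E12.5 (26.7% of all tested genes), and in tooth germ 1 was higher and 4 lower (16.6% and 25.3%).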

How the data were processed

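Total RNA of lens, tooth germ and whole body was labelled by in vitro transcription and hybridised to 1 array per sample. The authors deposited a linear intensity for each probe set on each array, made with RMA per the labels, which list affy version 0.7. RMA corrects background, matches array distributions and sums probes, so shifts shared by all genes are largely removed. Array medians of the tested genes still ran from 7.34 to 7.70 log2 in the lens series and from 7.38 to 7.64 in the tooth series. Log2 was taken here, with no further normalization. The platform annotation ties 34945 of the 45101 probe sets to a single gene, and symbols were matched by Entrez ID (34741 sets).

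A gene was tested where its set was above 44.1, the median of all values, on at least 3 arrays. limma 3.58.1 in R 4.3.3 fitted 1 mean per group over all 19 arrays, with two-sided moderated tests and Benjamini-Hochberg adjustment over the 13320 genes, called under 0.05. Differences carry the SE of the fit. The fit was tested on simulated data. No 2 arrays shared over 2.04% of values exactly.

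The members and lists were chosen with earlier results of these data known. Values on every array are given for the member of each role with the largest lens change, members called against the majority, and the largest called rise and fall in each comparison with body. Pathway genes are named by the largest called changes. Replicate numbers come from the titles. Same-numbered arrays of E11.5 and E12.5 lens deviated together from their group means (correlations of 0.40 to 0.64). In no other pair of groups were all such correlations above 0.1 (range -0.53 to 0.58). The labels do not say that arrays are paired. At both stages replicate 1 was in the set with high bacterial control signal and replicates 2 and 3 in the low set. The part of that set in the correlations was not tested. Results were recomputed under other scalings, filters, probe sets, designs and with arrays left out. The other marker lists gave, as genes higher and lower of those tested in E12.5 lens against body, 2 and 3 of 6 for neural retina, 3 and 0 of 3 for pigment cells, 0 and 7 of 8 for mesenchyme, 0 and 5 of 6 for erythroid cells, 3 and 0 of 7 for macrophages, and 0 and 2 of 6 for endothelium.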

Additional observations from a re-analysis of the deposited data

Results flagged for a closer look

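In the whole bodies of the lens series, 1 of the 4 arrays stood far from the other 3 for 2 of the 36 genes checked: Cdc6 in replicate 1 (log2 signal 9.42) and Mcm5 in replicate 4 (11.21). Chance gives about 1 in 20 such groups.

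The distance from the matched body differed between tooth germ and E12.5 lens, by the test of that difference itself, for 25 genes, with the higher value in tooth germ for each of them on the probe set used. With the second-brightest probe set 14 genes were higher, among them Rfc4 (1.04), and Mcm2 was lower (-0.71). The values of Mcm5 (-0.42) and Cdc45 (-0.0479) turned negative. The differences were 1.98 log2 for Tk1, 1.97 for Rrm2, 1.78 for Mcm5, 1.70 for Prim1, 1.65 for Pole, 1.56 for Cdt1, 1.53 for Pold1, 1.45 for Pola2, 1.26 for Mcm10, 1.21 for Rpa2, 1.16 for Chaf1b, 1.11 for Mcm7 and 1.03 for Cdc6. They were 0.90 for Ccne1, 0.88 for Rrm1, 0.81 for Gins1, 0.80 for Lig1, 0.79 for Fen1, 0.78 for Rfc2, Pola1 and Cdc45, 0.76 for Gins2, 0.73 for Mcm4, 0.71 for Orc6 and 0.53 for Mcm6. The series of the arrays moves with this contrast, and its part was not tested.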

How the results depend on the processing

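Over all alternatives, the members' median difference ran from -1.24 to -0.99 for E12.5 minus E10.5 lens and from -1.14 to -0.92 for E12.5 lens minus body. Centring each array on its median moved the second from -1.09 to -0.95, as the mean of the array medians over tested genes was 0.14 log2 higher in the bodies than in E12.5 lens; no call of a fall from E10.5 to E12.5 changed. With 1 array left out, counts ran as follows: E10.5 lens minus body, 1 to 3 higher and 0 to 2 lower; E11.5 minus body, 0 to 1 and 15 to 17; E12.5 minus body, 33 to 34 lower; E11.5 minus E10.5, 0 to 8 lower; E12.5 minus E11.5, 18 to 27 lower; E12.5 minus E10.5, 33 to 36 lower; tooth germ minus body, 1 to 3 higher and 10 to 14 lower; tooth minus lens difference, 21 to 25 higher and 0 to 1 lower; tooth-series minus lens-series body, 10 to 14 higher and 11 to 13 lower.

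For E10.5 lens minus body, higher counts were 5 with the control-signal set as block or median centring, 6 with the mean of probe sets, 4 without E11.5 and E12.5 replicates 1 together (chosen after seeing the data), 1 with a filter at 100, no filter or quantile normalization, and 0 within either control-signal set; lower counts were 0 with median centring and within either set, and 1 with the second probe set. Its median was -0.0091 within the low set. The fits within a control-signal set also held the tooth-series arrays, and the low set held 1 array of E10.5 lens. For E11.5 minus body, higher counts were 0 with the filter at 100, within either set and without both replicates 1, and lower counts were 9 with the second probe set and 10 within either set. For E11.5 minus E10.5, lower counts were 2 with median centring, 3 with no filter, 1 with quantile normalization or the second probe set, 2 without both replicates 1, and 0 with only the arrays compared or within the low set. For E12.5 minus E11.5, they were 8 with only the arrays compared, 19 with the second probe set and 5 within the high set, which holds 1 array of each stage and borrows its spread from the other groups. For tooth germ minus body, higher counts were 6 with the control set as block, median centring or the second probe set and 7 with quantile normalization, which gave 8 lower. For the tooth minus lens difference, the second probe set gave 14 higher, and lower counts were 1 with it, the control set as block, median centring or robust fitting with a trend. For the 2 bodies, 9 were higher with the mean of probe sets, and 9 higher and 19 lower with the second probe set.

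Only for E11.5 and E12.5 lens did all same-numbered arrays deviate together from their group means, and no label pairs them. With a replicate block on those stages (chosen after seeing the data) E12.5 minus E11.5 had 31 lower, with Cdc6 and Rfc3 added. With the block over all arrays it had 26, without Rfc2, Pola1 and Fen1, E10.5 lens minus body had 1 higher and 1 lower, E11.5 minus E10.5 had 2 lower, the tooth minus lens difference had 1 lower, and E12.5 minus E10.5 had 36 lower.

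Signs turned with the second probe set for Orc1 at E11.5 (0.35) and E12.5 (0.15), Mcm10 (0.0202) and Cdc45 (0.33) at E12.5 minus body, Cdc45 (0.0062) and Gins1 (0.10) at E12.5 minus E11.5, and Cdc45 at E12.5 minus E10.5 (0.0019). In tooth germ minus body they turned for Orc1 (0.98), Cdt1 (-0.72), Mcm2 (-0.76), Mcm4 (0.0791), Mcm5 (-1.76), Mcm7 (-0.72) and Rrm2 (-1.25), and with the mean of probe sets for Orc1 (0.0948), Mcm2 (-0.37), Mcm5 (-0.59), Mcm7 (-0.0244) and Rrm2 (-0.80). In the tooth minus lens difference they turned for Mcm2 (-0.71), Mcm5 (-0.42), Cdc45 (-0.0479) and Rfc4 (1.04). The cause of these changes was not tested.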
